A study of Mus musculus with 12 samples.

Results

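The levels of 8 genes of tumor macrophages were described across sorted cells of mouse glioblastoma (GBM): the scavenger receptors *Msr1*, *Stab1*, *Cd36* and *Cd163*, the lectin receptors *Mrc1* and *Clec4a2*, and the enzymes *Arg1* and *F13a1*. All 8 were among the 18180 genes with a deposited value, and each was found by its gene symbol. They were chosen by their known macrophage roles together with their levels in these same populations, with earlier results of these libraries known, so their differences between populations are a description and carry no test. The tumors arose in mice with a conditional (Cre/Lox) human EGFR transgene, Cdkn2a -/- and a conditional luciferase reporter among their alleles, on a mixed background of C57Bl/6J, 129S4, FVBN/J and Balb/cJ per the labels (the study's methods add SJL), after a Cre lentivirus had been injected into the striatum of adult animals. EGFR+ cells of 3 end-stage GBMs, T3, T4 and T5, were each sorted into PDGFRA+, PDGFRA-, GAL1+ and GAL1- cells (GAL1 is Galectin-1), which gave 12 bulk RNAseq libraries with 3 per population. All groups carry the same alleles, the number of animals behind each tumor of this sort is not stated in the sources used here, and cells of tumor-free brain were not analysed here. CD45 negativity is stated for these cells where the study gives its results, whereas its account of the staining for this sort names only EGFR, PDGFR and Galectin-1.

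Macrophages in a tumor come from resident microglia and border-associated cells of the brain and from monocytes that enter with the blood. Scavenger receptors let them take up modified lipoproteins, dead cells and hemoglobin, lectin receptors bind sugars on glycoproteins, and Arginase-1 turns arginine into ornithine and urea, which lowers the arginine that T cells need. These genes are used as signs of an alternatively activated, tissue-clearing state, which is common in tumors.

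Values are log2 CPM (read counts scaled to a fixed library total), made by the authors with voom after TMM scaling. Recovered reads per library ranged from 9851175 to 24117541, and a floor of 3 reads lay at a log2 CPM between −2.99 and −1.44, which covers counting error only. Markers of leukocytes were present in every population. The summed level of 12 pan-leukocyte genes, led by *Ptprc* (which encodes CD45), ran from 80.7 to 216 CPM in GAL1- cells, from 621 to 1450 CPM in PDGFRA+, from 671 to 2900 CPM in PDGFRA- and from 2700 to 3690 CPM in GAL1+ libraries. The 8 measured markers of monocytes and infiltrating macrophages summed to 31.5 to 79.7, 388 to 731, 349 to 1500 and 1570 to 1880 CPM in the same order, and the 10 microglia markers to 82.8 to 153, 429 to 1150, 327 to 1270 and 1830 to 2520 CPM. The 8 measured border-associated macrophage markers summed to 12.9 to 46.0 CPM in GAL1- cells and 882 to 1190 CPM in GAL1+ cells. The 10 endothelial markers summed to 39.8 to 88.4 CPM in GAL1- and 320 to 406 CPM in GAL1+ cells, and the 6 markers of oligodendrocyte precursors and tumor cells to 4790 to 5980 and 602 to 1810 CPM. Of the 7 measured neutrophil markers, limma called 3 higher in GAL1+ over GAL1- cells and left 4 uncalled, among them *S100a8* with a log2 fold change of −0.03. Their sum of 103 to 185 CPM in GAL1+ cells, beside 17.1 to 53.8 CPM in GAL1- cells, was led by *Csf3r* (log2 CPM 6.29 to 7.37), and their median log2 fold change was 0.76. None of these markers was at 0 in all 3 libraries of a population. Their part in the levels below was not tested, and in bulk RNA fewer cells of a type and less RNA per cell cannot be told apart.

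Of the 8 genes, 6 had a promoter in the RefSeq table of GRCm38.p6, which covers 250 bases before and 50 after each start (7 promoters, since *F13a1* has 2), and the windows below are shown because they hold a textbook motif of macrophage factors. Searched on both strands, GAGGAAGT (the site of PU.1, the factor that sets myeloid identity) was in 3.20% of all 32851 promoters, TTC and GAA with 4 bases between them (the spacing bound by STAT6, which carries the interleukin-4 signal) in 6.95% and TGANTCA (the AP-1 site) in 7.81%. Each motif was found in the promoter of 1 of the 6 genes. The windows read 5′ to 3′ on the strand of the gene, with the motif in capitals, and none of the motifs overlapped another.
F13a1, PU.1 motif, chr13:37049181-37049210 (minus strand): cgagtccttttGAGGAAGTacccagaggca
Cd36, STAT6 motif, chr5:17835857-17835886 (minus strand): gtgatgggtcTTCACCAGAAatagaccctt
Clec4a2, AP-1 motif, chr6:123122710-123122738 (plus strand): gtctgtgggagTGACTCAaatgattccat
The first base of the motif lay 15, 21 and 32 bases after the start, in that order. These matches are a description of letters in a window, and no motif was shared by the 6 genes.

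All 8 genes had their highest mean in GAL1+ cells and their lowest in GAL1- cells, with the PDGFRA+ and PDGFRA- cells between. In no gene did the 3 GAL1- libraries overlap with those of any other population. For *Cd163* the gap was narrow, a log2 CPM of 0.02 in the T5 library of GAL1- cells and 0.04 in that of PDGFRA- cells. The share of all genes that separate in this way is not given here. Nothing is read from the separation, because levels in these populations served to choose the genes. The ranges of PDGFRA+ and PDGFRA- cells overlapped for each of the 8 genes. These ranges include the spread between tumors and do not pair the libraries. Differences within each tumor are given below. A CPM of 1 or less was found in 11 of the 24 values of GAL1- cells, in 1 of 24 of PDGFRA- cells and in 0 of 24 of each of the other populations.

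**Figure D1:**
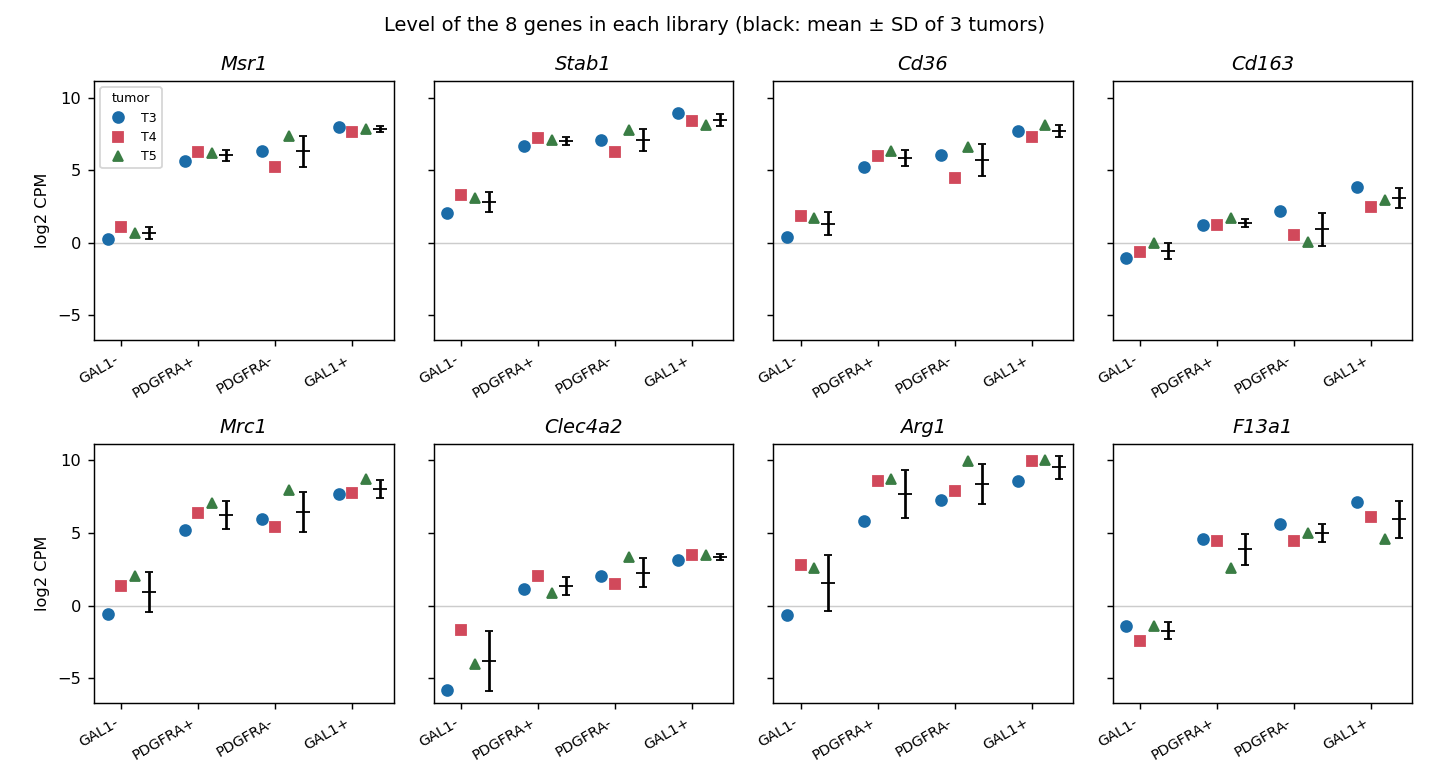
Level of the 8 genes (log2 CPM, vertical axis) in the 4 populations (horizontal axis), with a symbol for each tumor and the mean ± SD of 3 tumors in black. In each panel the GAL1- libraries lie below all others and the GAL1+ mean is the highest.

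Among the scavenger receptors, *Msr1* (the class A receptor for modified lipoproteins) was at a log2 CPM of 0.24, 1.11 and 0.71 in the GAL1- libraries of T3, T4 and T5 and at 8.0, 7.62 and 7.87 in the GAL1+ libraries. It was at 5.61, 6.27 and 6.17 in PDGFRA+ and at 6.31, 5.20 and 7.38 in PDGFRA- cells. The GAL1+ libraries were all above the PDGFRA- libraries, whose spread was the widest. The fitted log2 fold change was 7.14 ± 0.42 (SE) in GAL1+ over GAL1- cells and −1.81 ± 0.42 in PDGFRA+ over GAL1+ cells.

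*Stab1* encodes stabilin-1, a clearance receptor of macrophages and of sinusoidal endothelium. It was at a log2 CPM of 2.05, 3.28 and 3.09 in GAL1- cells of T3, T4 and T5, 8.91, 8.41 and 8.09 in GAL1+ cells, 6.68, 7.24 and 7.09 in PDGFRA+ cells and 7.05, 6.28 and 7.80 in PDGFRA- cells. Its mean differed by 0.05 between PDGFRA+ and PDGFRA- cells, and the GAL1+ libraries did not overlap with either. The log2 fold change of GAL1+ over GAL1- cells was 5.66 ± 0.41. *Stab1* shares exon sequence with the antisense gene *Nt5dc2*, which lay at a log2 CPM of 5.30 to 6.16 in the GAL1- and 4.66 to 5.92 in the GAL1+ libraries. Since no source used here says whether counting used the strand of the kit, reads of the pair where they overlap cannot be told apart. *F13a1* likewise overlaps an antisense gene, *Gm30489*, whose level is not given here.

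*Cd36*, a class B scavenger receptor that binds oxidized lipoproteins, long-chain fatty acids and thrombospondin-1, was at a log2 CPM of 0.40, 1.83 and 1.74 in GAL1- and of 7.70, 7.31 and 8.14 in GAL1+ cells. Its levels were 5.25, 5.99 and 6.29 in PDGFRA+ and 6.07, 4.48 and 6.57 in PDGFRA- cells. T4 held the lowest of the PDGFRA- values, and all GAL1+ libraries were above those of the other populations. The log2 fold change of GAL1+ over GAL1- cells was 6.39 ± 0.46.

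*Cd163*, the receptor for haptoglobin bound to hemoglobin, had the lowest mean level per kilobase of exon of the scavenger receptors in each population. GAL1- cells had a log2 CPM of −1.05, −0.62 and 0.02, GAL1+ cells 3.84, 2.47 and 2.93, PDGFRA+ cells 1.23, 1.23 and 1.72, and PDGFRA- cells 2.18, 0.53 and 0.04. The T5 library of PDGFRA- cells was thus next to the highest GAL1- library, although it had the highest pan-leukocyte mean of the 6 PDGFRA+ and PDGFRA- libraries (7.36). *Cd163* had the smallest difference of the 8 genes, a log2 fold change of 3.63 ± 0.52 in GAL1+ over GAL1- cells.

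Of the lectin receptors, *Mrc1* (CD206, the mannose receptor) was at a log2 CPM of −0.59, 1.34 and 2.02 in GAL1- cells and of 7.65, 7.72 and 8.71 in GAL1+ cells of T3, T4 and T5. PDGFRA+ cells had 5.19, 6.39 and 7.08 and PDGFRA- cells 5.96, 5.39 and 7.99. T5 was the highest tumor in each population, and within each tumor PDGFRA- cells were below GAL1+ cells, by log2 differences of −1.69, −2.33 and −0.72. The log2 fold change of GAL1+ over GAL1- cells was 7.10 ± 0.43.

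*Clec4a2* encodes the inhibitory receptor DCIR, which carries an ITIM that recruits phosphatases. In GAL1- cells it had 0, 7 and 1 reads in T3, T4 and T5, so that T3 and T5 were at or under the floor. It was at a log2 CPM of 3.12, 3.50 and 3.45 in GAL1+ cells, 1.15, 2.06 and 0.86 in PDGFRA+ cells and 2.0, 1.46 and 3.36 in PDGFRA- cells. The T5 library of PDGFRA- cells lay within the GAL1+ range, while PDGFRA- was below GAL1+ in each tumor, by log2 differences of −1.12, −2.05 and −0.09. Summed over tumors, 425 reads in GAL1+ and 8 in GAL1- cells gave a ratio of 96.7 (exact 95% interval 48.7 to 226, counting error only). The fitted log2 fold change of 7.20 ± 0.80 depends on the offset of 0.5 reads at these counts.

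Of the enzymes, *Arg1* had the highest mean level per kilobase of exon of the 8 genes in each population. It was at a log2 CPM of −0.67, 2.78 and 2.59 in GAL1- cells and of 8.59, 9.97 and 10.01 in GAL1+ cells of T3, T4 and T5. PDGFRA+ cells had 5.80, 8.60 and 8.68 and PDGFRA- cells 7.28, 7.92 and 9.93, so the PDGFRA- and GAL1+ ranges overlapped, although PDGFRA- cells were the lower in each tumor (log2 differences of −1.30, −2.05 and −0.08). The log2 fold change of GAL1+ over GAL1- cells, 7.96 ± 0.49, was the largest of the 8 estimates, and exceeded that of *F13a1* by less than either SE.

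*F13a1* encodes the catalytic subunit of clotting factor XIII, which cross-links fibrin and is made by monocytes, macrophages and megakaryocytes. It was at a log2 CPM of −1.41, −2.41 and −1.38 in GAL1- cells and of 7.12, 6.11 and 4.58 in GAL1+ cells. PDGFRA+ cells had 4.56, 4.42 and 2.61 and PDGFRA- cells 5.59, 4.41 and 4.96. T5 held the lowest GAL1+ and PDGFRA+ values, and the T5 library of PDGFRA- cells exceeded that of GAL1+ cells. The log2 fold change of GAL1+ over GAL1- cells was 7.67 ± 0.52, and the reads were 3534 in GAL1+ and 23 in GAL1- cells summed over tumors.

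Per kilobase of exon (lengths from GENCODE M21, an annotation of another genome build, so approximate), the mean log2 CPM in GAL1+ cells was 8.96 for *Arg1*, 5.89 for *Cd36*, 5.83 for *Msr1*, 5.60 for *Mrc1*, 5.47 for *Stab1*, 3.94 for *F13a1*, 1.97 for *Clec4a2* and 0.91 for *Cd163*. The receptors from *Cd36* to *Stab1* thus lay within a narrow band, with *Arg1* above and *Cd163* below. In GAL1- cells the same scale ran from −5.23 for *Clec4a2* to 1.00 for *Arg1*.

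Across the 8 genes, the median log2 fold change of GAL1+ over GAL1- cells was 7.12 (3.63 to 7.96), beside −0.03 over all genes. In PDGFRA+ over GAL1- cells the median was 5.25 (1.94 to 6.13), and in PDGFRA+ over GAL1+ cells it was −1.82 (−2.07 to −1.46). The 3 comparisons share libraries, and each gene moved the same way in all 3 tumors in each of them. By limma's adjusted p, 8 of 8 genes were called higher in GAL1+ over GAL1- cells, beside 28.9% of all genes, 7 of 8 higher in PDGFRA+ over GAL1- cells, beside 8.26%, and 7 of 8 lower in PDGFRA+ over GAL1+ cells, beside 17%. Nothing is read from these counts, because the contrasts served to choose the genes. Without T3 the last 2 counts were 0 by limma, with 8 and 6 of the genes at an unadjusted p under 0.05. Over all 18180 genes 2549 and 5970 were then at an unadjusted p under 0.05. The shares of all genes called without T3, in either direction, were 0% and 11.6%. The PDGFRA+ over GAL1+ count was 3 without T5, beside 23.5% of all genes, and 3 without the tumor block, beside 17.3%, whereas 38% of all genes were called with every tumor and the block. The median over the 8 genes without T3 was 4.71 in PDGFRA+ over GAL1- and −1.50 in PDGFRA+ over GAL1+ cells.

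**Figure D2:**
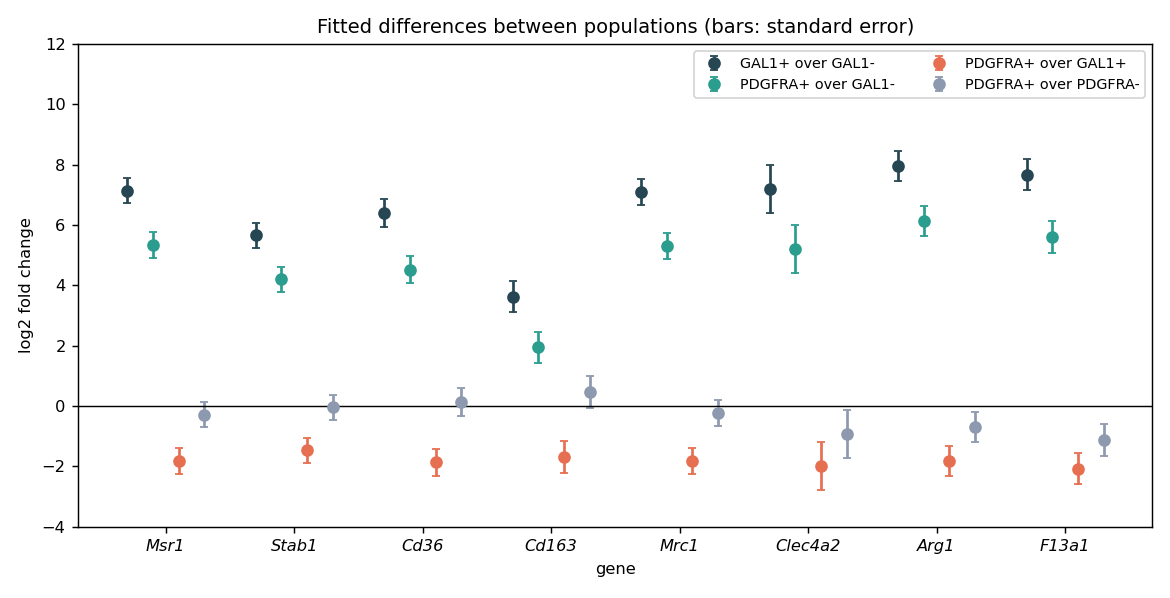
Fitted log2 fold change (vertical axis) of the 8 genes (horizontal axis) in 4 comparisons, with bars for the standard error. The differences from GAL1- cells lie at 1.94 or above, those of PDGFRA+ over GAL1+ cells between −2.07 and −1.46, and those of PDGFRA+ over PDGFRA- cells on both sides of 0.

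PDGFRA+ and PDGFRA- cells gave no common direction. The log2 fold changes had a median of −0.26, from −1.12 for *F13a1* (95% interval −2.30 to 0.05) to 0.47 for *Cd163* (−0.70 to 1.65). In T3 all 8 genes were lower in PDGFRA+ cells, with log2 differences from −1.48 for *Arg1* to −0.38 for *Stab1*. In T4 all 8 were higher, from 0.01 for *F13a1* to 1.51 for *Cd36*. In T5, 7 were lower and *Cd163* was higher by 1.67. Without T4 the median was −0.90. In that fit 5 of the 8 genes had an unadjusted p under 0.05 in limma, beside 2783 of all 18180 genes. Of the 8, 0 were called. The pan-leukocyte mean moved with this order, at a log2 CPM of 5.15 in PDGFRA+ and 6.03 in PDGFRA- cells of T3, 6.39 and 5.22 in T4, and 6.20 and 7.36 in T5. Its part in the difference was not tested. By limma's adjusted p, 0 of the 8 genes were called, and 0 had an unadjusted p under 0.05. Over all genes the shares called higher and lower were 0% and 0%, with 2137 genes at an unadjusted p under 0.05.

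The level of each gene was then set against the mean log2 CPM of the 12 pan-leukocyte genes of the same library. In GAL1+ cells this difference was 2.03 ± 0.65 (SD, n = 3) for *Arg1*, 0.97 ± 0.59 for *Stab1*, 0.53 ± 0.46 for *Mrc1*, 0.33 ± 0.32 for *Msr1*, 0.22 ± 0.37 for *Cd36*, −1.56 ± 1.45 for *F13a1*, −4.14 ± 0.10 for *Clec4a2* and −4.42 ± 0.84 for *Cd163*. PDGFRA+ cells were close to this on the same scale, with 1.78 ± 0.99 for *Arg1*, 1.09 ± 0.38 for *Stab1*, 0.31 ± 0.50 for *Mrc1* and 0.10 ± 0.31 for *Msr1*. The median over the 8 genes was 0.24 lower in PDGFRA+ than in GAL1+ cells as a mean of 3 tumors (−0.24 ± 0.05, SD), beside the −1.82 of the unadjusted levels. GAL1- cells stood lower, with −1.45 ± 1.26 for *Arg1*, −2.09 ± 0.82 for *Mrc1*, −2.33 ± 0.29 for *Msr1* and −1.69 ± 0.18 for *Cd36*. There the median over the genes was below GAL1+ cells by 2.34 ± 0.51 (SD of 3 tumors). *Cd163* went the other way, at −3.57 ± 0.56 in GAL1- and −4.42 ± 0.84 in GAL1+ cells. The difference between GAL1+ and GAL1- cells exceeded that of the pan-leukocyte mean for 7 of the 8 genes, among them *Clec4a2*, with 0, 7 and 1 reads in GAL1- cells. Nothing is read from this count, because the contrast served to choose the genes. The share of all genes above the pan-leukocyte mean in this comparison is not given here. Other myeloid markers were also above the pan-leukocyte genes, whose median log2 fold change in the same comparison was 4.44. The median was 4.61 (0.66 to 6.12) for the 10 microglia markers. It was 4.61 (2.22 to 6.27) for the 8 monocyte and infiltrating macrophage markers and 5.60 (4.63 to 6.79) for the 8 measured border-associated macrophage markers.

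**Figure D3:**
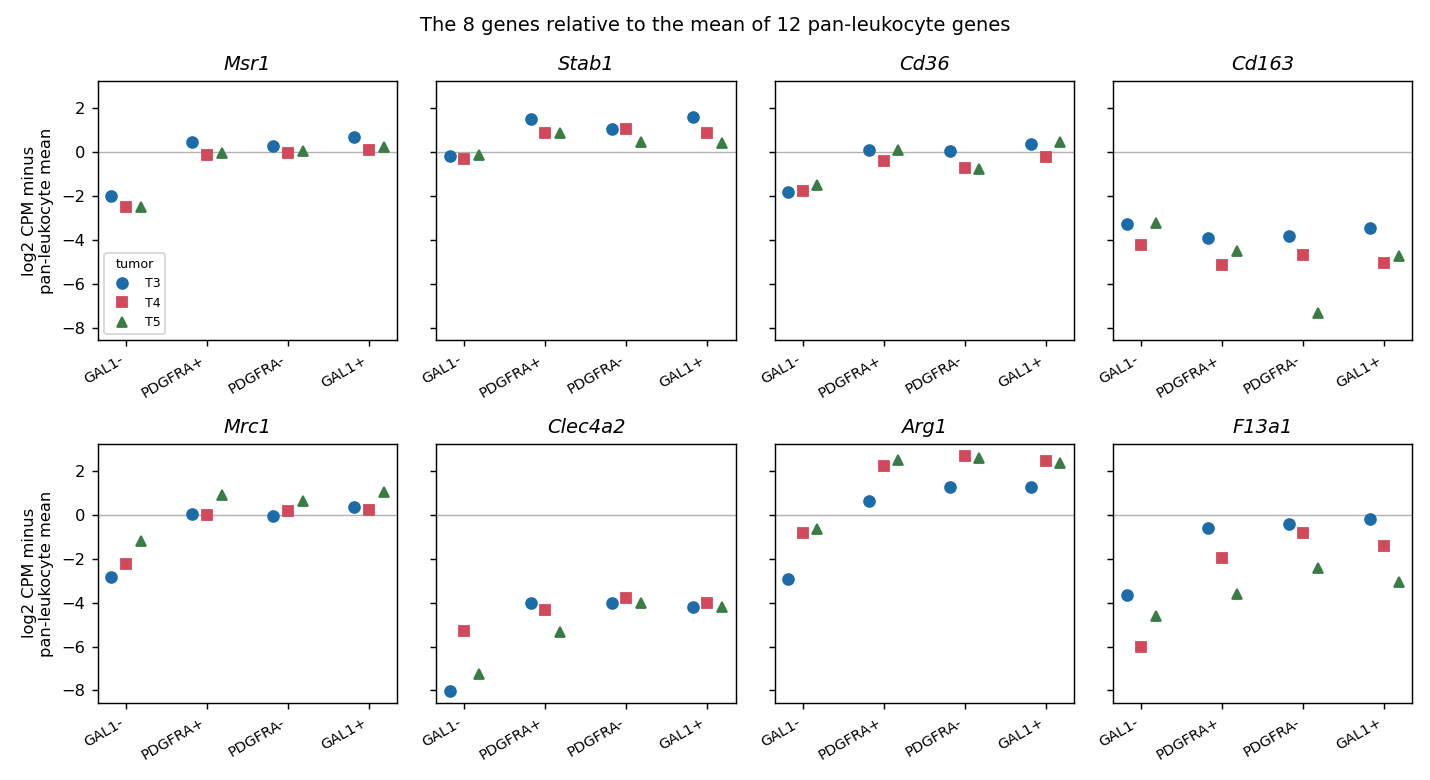
Log2 CPM of each gene minus the mean of 12 pan-leukocyte genes in the same library (vertical axis), by population (horizontal axis) and tumor (symbols). Outside GAL1- cells the values of *Msr1* lie between −0.11 and 0.69, while those of *F13a1* run from −3.59 to −0.19 and follow the tumor.

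Differences between the tumors were tested, since the genes were chosen by their levels in the populations and not by tumor. Earlier results of these libraries were known at that choice. *Arg1* differed between tumors (limma moderated F-test, adjusted p = 0.0103), with means over the 4 populations of 5.25 in T3, 7.32 in T4 and 7.80 in T5. It was higher in T4 and in T5 than in T3 in 4 of 4 populations, by a log2 difference of 2.07 and 2.55 (SE 0.42). *Mrc1* also differed (adjusted p = 0.0200, limma), with T5 above T3 by 1.90 and above T4 by 1.24 (SE 0.37) and highest in 4 of 4 populations. The other 6 genes had adjusted p-values from 0.119 to 0.697 in the limma F-test. With 2 of the 8 called, beside 23.2% of all genes, the count was near the share over all genes and marks nothing particular to the 8. Of the 12 pan-leukocyte genes 0 were called by limma (2 at an unadjusted p under 0.05), and *Ptprc* was nearest, with T5 above T3 by 1.20 (adjusted p = 0.0540). The 4 libraries of a tumor were sorted from that tumor, so these p-values measure the spread between sorts and not that between animals. Both calls were lost without T3, where the log2 difference between T4 and T5 was 0.48 for *Arg1* (adjusted p = 0.483) and 1.24 for *Mrc1* (0.169), without T5, where T3 and T4 differed by 2.07 and 0.66 (0.0659 and 0.320), and without the PDGFRA+ libraries (0.0710 and 0.0861). *Mrc1* also lost its call without the T5 library of PDGFRA- cells (0.0503) and without the GAL1+ libraries (0.0648), and *Cd36* was called only without T4 (0.0185).

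Centring each library on its pan-leukocyte mean, an alternative chosen after the data were seen, kept *Arg1* and brought in *F13a1*. *Arg1* was then higher than in T3 by 1.57 in T4 and 1.62 in T5 (SE 0.47, adjusted p = 0.0306, limma). *F13a1* was lower than in T3 by a log2 difference of −1.33 in T4 and −2.20 in T5 (SE 0.52, adjusted p = 0.0151), and *Mrc1* was no longer called (adjusted p = 0.239). On this scale 6.74% of all genes were called. *Arg1* and *F13a1* thus went in opposite directions between the same tumors. Within a library, *Arg1* minus *F13a1* on the log2 CPM scale was 1.46, 3.86 and 5.43 in GAL1+ cells of T3, T4 and T5, 1.69, 3.51 and 4.97 in PDGFRA- cells, 1.24, 4.18 and 6.07 in PDGFRA+ cells and 0.74, 5.19 and 3.97 in GAL1- cells. The 4 libraries of T3 (0.74 to 1.69) did not overlap with those of T4 (3.51 to 5.19) or T5 (3.97 to 6.07), which overlapped with each other. This contrast was singled out after its values were seen and was not tested. A factor applied to a whole library cancels in the difference, whereas quantile normalization or another read offset can change it. In GAL1- cells *F13a1* had only 10, 4 and 9 reads.

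**Figure D4:**
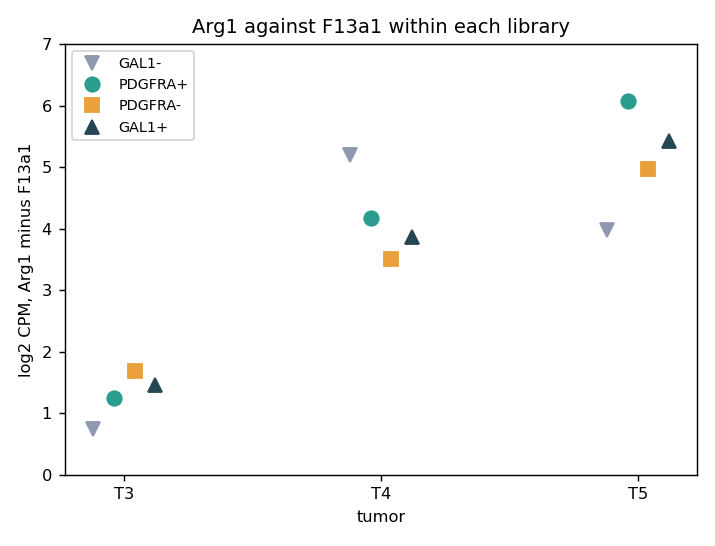
Log2 CPM of *Arg1* minus that of *F13a1* in the same library (vertical axis) by tumor (horizontal axis), with a symbol for each population. T3 lies between 0.74 and 1.69, below all libraries of T4 and T5.

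Genes that varied alike were sought among genes with a mean log2 CPM of at least 3, by Pearson's r over the 12 libraries. *Mrc1* was nearest to *Tlr8* (0.998), *Cd14* (0.993) and *Hk3* (0.992), *Stab1* to *Fcgr1* (0.993), *Pycard* (0.990) and *Lyz2* (0.990), and *Cd36* to *Ccl6* (0.995), *Ly86* (0.993) and *Arhgdib* (0.992). *Arg1* was nearest to *Dhrs3*, *Acvrl1* and *Ctsh* (0.985 each), *Msr1* to *Col14a1* (0.994), *Hk3* (0.991) and *Igsf6* (0.990), and *Clec4a2* to *Fcgr1* (0.982), *Rai14* (0.981) and *C3ar1* (0.980). *F13a1* was nearest to *Hal* (0.977), *Slfn5* (0.963) and *Ccl12* (0.957), and *Cd163* to *S1pr1* (0.948), *Serpinb6a* (0.930) and *Nrp2* (0.908). Most of these points share the step from GAL1- cells to the rest. With the population means removed, *Arg1* still had r = 0.985 with *Dhrs3* and 0.983 with *Ctsh* and *Mrc1* had 0.993 with *Tlr8*, while *F13a1* had 0.456 with *Ccl12*. Among the 28 pairs of the 8 genes r lay between 0.713 and 0.994. With the population means removed it ran from −0.478 for *Arg1* with *F13a1* to 0.896 for *Msr1* with *Cd36*, with a median of 0.608.

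Related genes that share a pathway with the 8 genes were set in 7 lists, compiled by hand and without any of the 8. They were compared between the populations (84 of 94 genes measured). The lists were compiled with earlier results of these data known, so their calls and p-values describe these libraries and are no independent test. In GAL1+ over GAL1- cells 69 were called higher and 6 lower by limma, with a median log2 fold change of 2.89, beside 28.9% and 29.3% of all genes. The 12 pan-leukocyte genes were all called higher too, with a median of 4.44, and the part of leukocyte content in the lists was not tested. Among scavenger receptors 10 of 15 were higher (of these *Lrp1*, at 0.40, turned to −0.61 with quantile normalization), with the largest changes in *Colec12* (a collectin, log2 fold change 5.59 ± 0.53, adjusted p = 5.0e-05), *Cd68* (5.12 ± 0.45) and *Cxcl16* (a receptor for oxidized lipids and a chemokine, 4.80 ± 0.44). *Scara3*, a scavenger receptor induced by oxidative stress, was lower by a log2 fold change of −2.11 ± 0.65 (adjusted p = 0.0185), and 4 were not called.

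Of the alternative activation genes, 14 of 15 were higher. *Ccl24* (eotaxin-2) rose most, by 6.83 ± 0.42 on the log2 scale (adjusted p = 3.9e-05, limma), although GAL1- cells had only 0, 7 and 16 reads, and *Chil3* (Ym1, 5.59 ± 0.51) and *Tgm2* (transglutaminase 2, another enzyme that cross-links proteins, 5.0 ± 0.36) followed. In arginine and polyamine metabolism 8 of 13 were higher, and the list held genes on both sides of the choice between nitric oxide and ornithine. *Nos2*, the inducible nitric oxide synthase that competes with *Arg1* for arginine, was higher by a log2 fold change of 4.50 ± 0.40, *Arg2*, the mitochondrial arginase, by 4.10 ± 0.31, and *Slc7a2*, a transporter of arginine, by 4.01 ± 0.49. The spermidine and spermine synthases *Srm* and *Sms*, which act downstream of ornithine, were lower, with log2 fold changes of −0.66 ± 0.17 and −0.61 ± 0.21 (adjusted p = 0.00775 and 0.0318, limma).

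Among genes of heme and iron handling, which deal with the cargo of *Cd163*, 9 of 10 were higher, led by *Slc11a1* (the phagosomal metal transporter NRAMP1, 5.81 ± 0.51), *Trf* (transferrin, 4.07 ± 0.39) and *Slc40a1* (the iron exporter ferroportin, 3.98 ± 0.37). *Tfrc*, the transferrin receptor, was lower by a log2 fold change of −0.90 ± 0.15. Of the genes for lipid uptake and cholesterol export, 11 of 12 were higher, with *Thbs1* (a ligand of *Cd36*, 3.83 ± 0.36), *Plin2* (the coat of lipid droplets, 3.75 ± 0.30) and *Npc2* (lysosomal cholesterol transfer, 3.12 ± 0.32) in front. In clotting and fibrinolysis 9 of 10 were higher, with *Plau* (urokinase, 4.85 ± 0.46), *F10* (factor X, 4.67 ± 0.37) and *Fn1* (fibronectin, which factor XIII cross-links, 4.48 ± 0.36). *F3*, tissue factor, was lower by a log2 fold change of −1.51 ± 0.22 (adjusted p = 3.8e-04, limma). In the Clec4 family with its signaling partners 8 of 9 were higher, with *Clec4a3* (5.34 ± 0.59) and the phosphatases *Ptpn6* (SHP-1, 4.49 ± 0.48) and *Inpp5d* (SHIP1, 4.33 ± 0.40) first. *Ptpn11*, the widely expressed SHP-2, was lower by a log2 fold change of −0.33 ± 0.09. *Clec4a2* and *Clec4a3* are close relatives, and the authors counted multi-mapping reads as fractions, so reads may be split between them.

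In PDGFRA+ over GAL1+ cells 55 of the 84 genes were called lower and 3 higher, beside 17% and 20.9% of all genes, with a median log2 fold change of −1.32. The 3 higher genes were *Scara3* (1.90 ± 0.65), *Tfrc* (0.55 ± 0.15) and *F3* (1.24 ± 0.22), which were also lower in GAL1+ than in GAL1- cells, although both comparisons use the same GAL1+ libraries. Of genes named above, *Ccl24* fell by 2.73 on the log2 scale, *Arg2* by 2.18, *Nos2* by 1.87 and *Thbs1* by 1.86. These are examples and not a ranking. *F10* (mean log2 CPM 2.19 in PDGFRA+ and 4.37 in GAL1+ cells) and *Clec4a3* (1.37 and 3.40) were lower as well. The pan-leukocyte genes were lower as well, 12 of 12 with a median of −1.59. In PDGFRA+ over GAL1- cells 47 were called higher and 0 lower, beside 8.26% and 0.011% of all genes, with a median of 1.62. Here 75 of the 84 estimates were higher, and 1 had a negative estimate with an unadjusted p under 0.05. Without T3, 7 of the 84 were called in PDGFRA+ over GAL1+ cells, beside 2110 of all genes in place of 6900. At an unadjusted p under 0.05 were 45 of the 84, beside 5970 of all genes. In PDGFRA+ over GAL1- cells 0 were then called by limma, beside 0 of all genes in place of 1504. There 55 of the 84 were at an unadjusted p under 0.05, beside 2549 of all genes. Without the tumor block the counts were 24 and 25, beside 3154 and 612 of all genes. Between PDGFRA+ and PDGFRA- cells limma called 0 of 84 (18 at an unadjusted p under 0.05, beside 2137 of all genes). Of the 84 estimates 17 were higher in PDGFRA+ cells, with a median of −0.25.

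**Figure D5:**
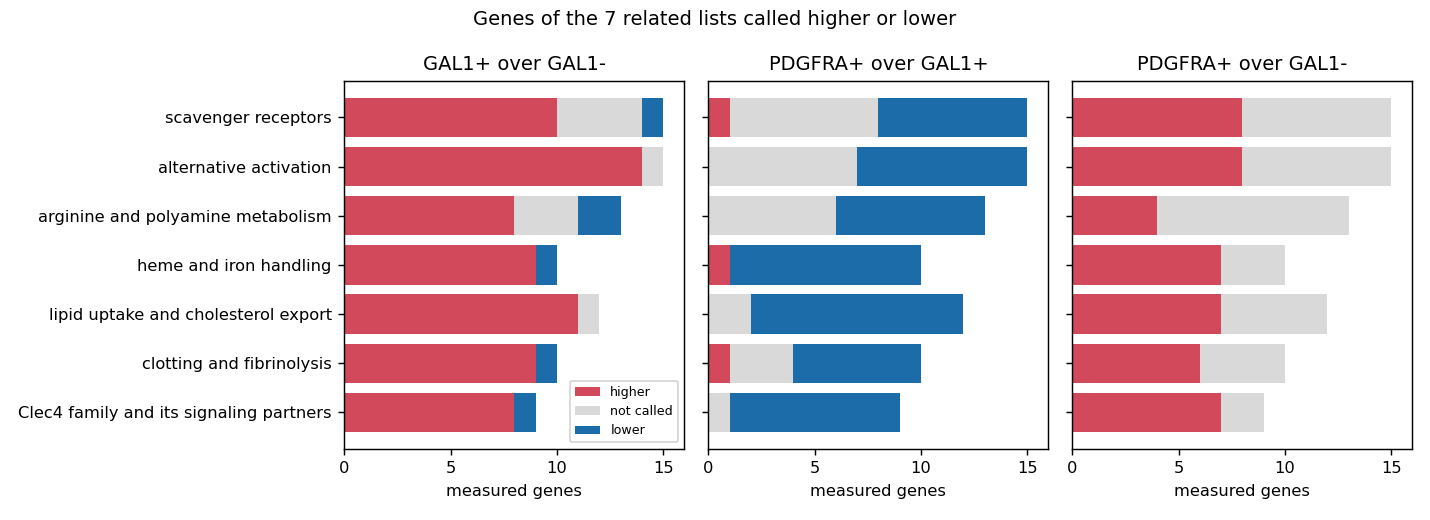
Number of measured genes (horizontal axis) of each related list (vertical axis) that were called higher, called lower or not called by limma in 3 comparisons. In GAL1+ over GAL1- cells most genes of each list were higher, and in PDGFRA+ over GAL1+ cells 55 of 84 were lower.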

How the data were processed

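RNA from sorted EGFR+ cells was made into libraries with a stranded total RNA kit. The authors trimmed reads with fastp, aligned them with STAR to mm39 and counted exons with featureCounts (multi-mapping reads as fractions). Versions are not given in the sources used here. Genes had to exceed a CPM of 1 in 3 or more samples, TMM and voom followed, and what the authors deposited is the log2 CPM of 18180 genes in 12 samples. Each library's lowest value was taken as 0 reads with an offset of 0.5, which gave read counts for all genes, and the share of them that was whole within 0.01 lay between 41.3% and 59.2%.

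With limma 3.58.1 in R 4.3.3, population means were estimated with tumor as a blocking factor from the deposited values of all genes and samples, and the variance prior followed mean expression (degrees of freedom: 6 residual, 3.49 prior). Calls needed an adjusted p (Benjamini-Hochberg over all genes) under 0.05. The tumor was tested by the moderated F-test of the same fit. Voom's weights were not used here. After the population means were removed, libraries of the same tumor correlated across genes with a mean r of 0.486 (18 pairs, 0.140 to 0.662), and the tumor numbers of the labels pair the samples.

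The 8 genes, the related lists and the markers were chosen with earlier results of these data known. Named list genes are the 3 with the largest log2 fold change in GAL1+ over GAL1- cells among those called with the same direction in all 3 tumors, plus any called against most of its list. Genes named for likeness are the 3 with the highest Pearson r, predicted genes left out. On simulated counts with 200 of 18180 genes changed between GAL1+ and GAL1- cells, the fit recovered 98.7% of 4-fold and 44.0% of 2-fold changes (3 runs). The real comparison had far more genes called, 28.9% higher and 29.3% lower, so recovery there may differ. Of the lists, *Marco*, *Cd5l*, *Stab2*, *Pparg*, *Hpx*, *Fabp4*, *F13b*, *Serpinb2*, *Clec4b1* and *Clec4b2* were not analysed here. Sequences are from RefSeq (GRCm38.p6). Alternatives were no block, only the 2 populations compared, no trend, robust estimation, a pseudocount of 2 reads, a filter at a log2 CPM above 1 in 3 libraries, quantile normalization, median centring, and leaving out each tumor, the T5 library of PDGFRA- cells or, for the tumor test, a population. Intervals were computed with Python 3.11.15 and scipy 1.17.1, and figures were drawn with matplotlib 3.10.9. A further allele of the mouse model is not reported here.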

Additional observations from a re-analysis of the deposited data

How the results depend on the processing

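For the related genes called in GAL1+ over GAL1- cells, every alternative run gave 67 to 75, with 67 without the replicate block and 67 to 75 when a tumor or library was left out, and in PDGFRA+ over PDGFRA- cells each gave 0. In PDGFRA+ over GAL1+ cells the reported count of 58 was 24 without the replicate block and 7 to 62 with tumors or a library left out, and in PDGFRA+ over GAL1- cells the reported 47 was 25 without the block and 0 to 52. The 8 genes called in GAL1+ over GAL1- cells remained 8 without the block. The count of 2 genes that differed between tumors was 0 to 3 with tumors or a library left out, 0 without all PDGFRA+ libraries and 1 without all GAL1+ libraries, where fewer libraries were fitted. No called fold change of the 8 genes between populations changed sign. Of the related genes called, *Lrp1* alone did, with a log2 fold change of 0.40 in GAL1+ over GAL1- cells and −0.61 with quantile normalization. *Clec4a2*, limited by depth in GAL1- cells, moved most with the scaling, from 7.20 to 6.21 (quantile normalization) and 6.12 (pseudocount of 2 reads) in GAL1+ over GAL1- cells and from 5.20 to 4.03 and 4.16 in PDGFRA+ over GAL1- cells, where *F13a1* went from 5.60 to 5.07 with quantile normalization. Leaving out 1 tumor leaves 2 per population.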
